A study of Mus musculus with 14 samples.

Results

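The 7 genes described here encode the core of the CoREST and REST repressor complex, namely Rcor1, Rcor2, Rcor3, Kdm1a, Hdac1, Hdac2 and Rest. They were measured as messenger RNA in 14 libraries of mouse small intestinal tumor organoids that the labels call APT, letters that the labels do not spell out. They were picked by name from the 55421 genes listed in the first set of files and the 17490 listed in the second, and all 7 were listed, and kept by the filter on low counts, in both. Rcor2 was put on the list because its count fell consistently in 1 of the 2 knockdowns, so its values there are given as a description with no test.

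The organoids carried doxycycline-inducible short hairpin RNAs against Suv4-20h2, the histone H4 lysine 20 methyltransferase whose gene symbol is Kmt5c. Set 1 holds 3 hairpin 1 libraries, whose hairpin targets exon 4, and 3 control 1 libraries with a control hairpin. Set 2 holds 4 hairpin 2 libraries, whose hairpin targets exon 9, and 4 control 2 libraries with a control hairpin. Every group, controls included, was kept for 4 days in 0.5 µg/ml doxycycline. The labels name each hairpin line and each control line as a clone, and nothing in them says that libraries of a group came from separate cultures or animals. The p-values therefore measure the spread between libraries, which may be technical, and a hairpin cannot be told apart from the clone that carries it. In bulk RNA, fewer cells of a type and less RNA per cell cannot be told apart either.

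CoREST is a scaffold protein. It bridges the lysine demethylase LSD1, encoded by Kdm1a, and the deacetylases HDAC1 and HDAC2, so that one complex can remove both methyl groups from histone H3 lysine 4 and acetyl groups from histone tails. Rcor1, Rcor2 and Rcor3 encode alternative scaffolds, each found in its own complexes with LSD1. REST is a zinc finger protein that binds a DNA element called RE1 and recruits CoREST through one end and SIN3 through the other. It is best known for keeping neuronal genes silent outside the nervous system.

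The promoters of Rcor2 and Rcor1 are shown because the balance between these scaffold genes differed between hairpin 1 and control 1 libraries. That difference was not tested, since its Rcor2 side is the fall that put Rcor2 on the list. On its Rcor1 side, only hairpin 1 replicate 1 was above the control libraries. Each window covers 250 bases upstream in the RefSeq table of build GRCm38.p6, read on the strand of the gene, and capitals mark GGGCGG, the GC box that Sp1 family factors bind, on either strand (CCGCCC on the other), and CACGTG, the E-box bound by Myc and related factors. Rcor2 is at chr19:7267144-7267393 on the plus strand and Rcor1 at chr12:111039117-111039366 on the plus strand.
Rcor2: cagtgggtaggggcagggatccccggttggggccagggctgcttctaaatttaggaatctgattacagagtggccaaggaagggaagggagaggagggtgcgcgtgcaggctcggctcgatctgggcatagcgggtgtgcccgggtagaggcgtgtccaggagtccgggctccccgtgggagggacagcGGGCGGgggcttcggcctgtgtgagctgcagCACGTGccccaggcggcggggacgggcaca
Rcor1: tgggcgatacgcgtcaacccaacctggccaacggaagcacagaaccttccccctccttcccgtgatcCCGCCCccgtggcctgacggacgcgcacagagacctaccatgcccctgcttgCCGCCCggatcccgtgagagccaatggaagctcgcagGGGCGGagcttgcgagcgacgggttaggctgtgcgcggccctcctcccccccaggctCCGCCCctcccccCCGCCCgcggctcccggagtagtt
Rcor2 held 1 GC box and 1 E-box in this window, and Rcor1 held 5 GC boxes and no E-box. Over the 32851 promoter windows of the table, 32.7% held at least 1 GC box and 6.02% at least 1 E-box. Of the 7 genes, 5 had a window in the table. Rcor3 held 6 GC boxes, Hdac2 held 1 and Kdm1a held none, and none of these 3 held the E-box. A match is a run of letters and does not show that a factor binds there.

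The total count per library ran between 16265034 and 23321606 in set 1 and between 9272134 and 26284079 in set 2. Values below are CPM, the counts of a gene divided by the library total and multiplied by a constant, scaled for library composition by the TMM method. The targeted gene, Kmt5c, was at 53.5, 64.2 and 56.0 CPM in hairpin 1 libraries, against 72.2, 75.7 and 67.2 CPM in control 1 libraries. In hairpin 2 libraries it was at 114, 111, 99.3 and 106 CPM, against 129, 121, 116 and 128 CPM in control 2 libraries. Every hairpin library was below every control library of its set, as for 6.37% of all genes tested in set 1 and 8.43% in set 2. The log2 fold change was -0.31 (SE 0.175, adjusted p = 0.801, edgeR quasi-likelihood test, n = 3 each) for hairpin 1 and -0.20 (SE 0.0619, adjusted p = 0.0977, n = 4 each) for hairpin 2. In set 2 the replicate numbers of the titles were taken to pair the libraries, because deviations of same-numbered libraries correlated. Libraries 1 to 3 of different number correlated too, at 0.261 to 0.393, so the pairing is weak. With the number as a block, the adjusted p for hairpin 2 was 0.00741 (edgeR). A pair of library features bears on the genes below. Hairpin 1 replicate 1 stood apart from the other set 1 libraries, with genes of chromosome 12 at a median of 0.67 on the log2 scale above the control mean. In hairpin 2, the median log2 fold change of whole chromosomes ran between -0.03 and 0.19.

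The scaffold gene Rcor2 was at 63.8, 60.1 and 46.7 CPM in hairpin 1 libraries, against 131, 122 and 158 CPM in control 1 libraries. All hairpin 1 libraries lay far below all control 1 libraries, with means of 56.9 ± 8.996 and 137 ± 18.6 CPM (SD, n = 3 each). Its log2 fold change of -1.27 (SE 0.205) stayed between -1.36 and -1.10 under 13 alternatives, among them leaving out each library. Of the 13540 genes tested in set 1, 1.4% were lower with no overlap and a log2 fold change of -1 or less. These values are the ones that put Rcor2 on the list, so no test is attached to them. The lack of overlap and the narrow range under the alternatives follow at least in part from that choice, and add no support to the fall.

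In the other knockdown, whose libraries were not used for that choice, Rcor2 was at 167, 156, 158 and 137 CPM in hairpin 2 libraries, against 159, 149, 160 and 140 CPM in control 2 libraries. The groups overlapped almost completely, and hairpin 2 was the higher library in 2 of 4 pairs of equal replicate number. Hairpin 2 gave a log2 fold change of 0.02 (SE 0.0728, adjusted p = 0.903, edgeR quasi-likelihood test, n = 4 each). The hairpin 1 log2 fold change minus the hairpin 2 log2 fold change was -1.28 (SE 0.185), given with no test because set 1 chose the gene. The knockdown of Kmt5c itself was small in both sets, and that of hairpin 1 minus that of hairpin 2 was -0.10 on the log2 scale (SE 0.142, adjusted p = 0.824, edgeR). Both differences come from a model with 1 spread per gene over both sets. Their SEs were below those of hairpin 1 alone (0.205 for Rcor2 and 0.175 for Kmt5c) and may be too small.

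**Figure D1:**
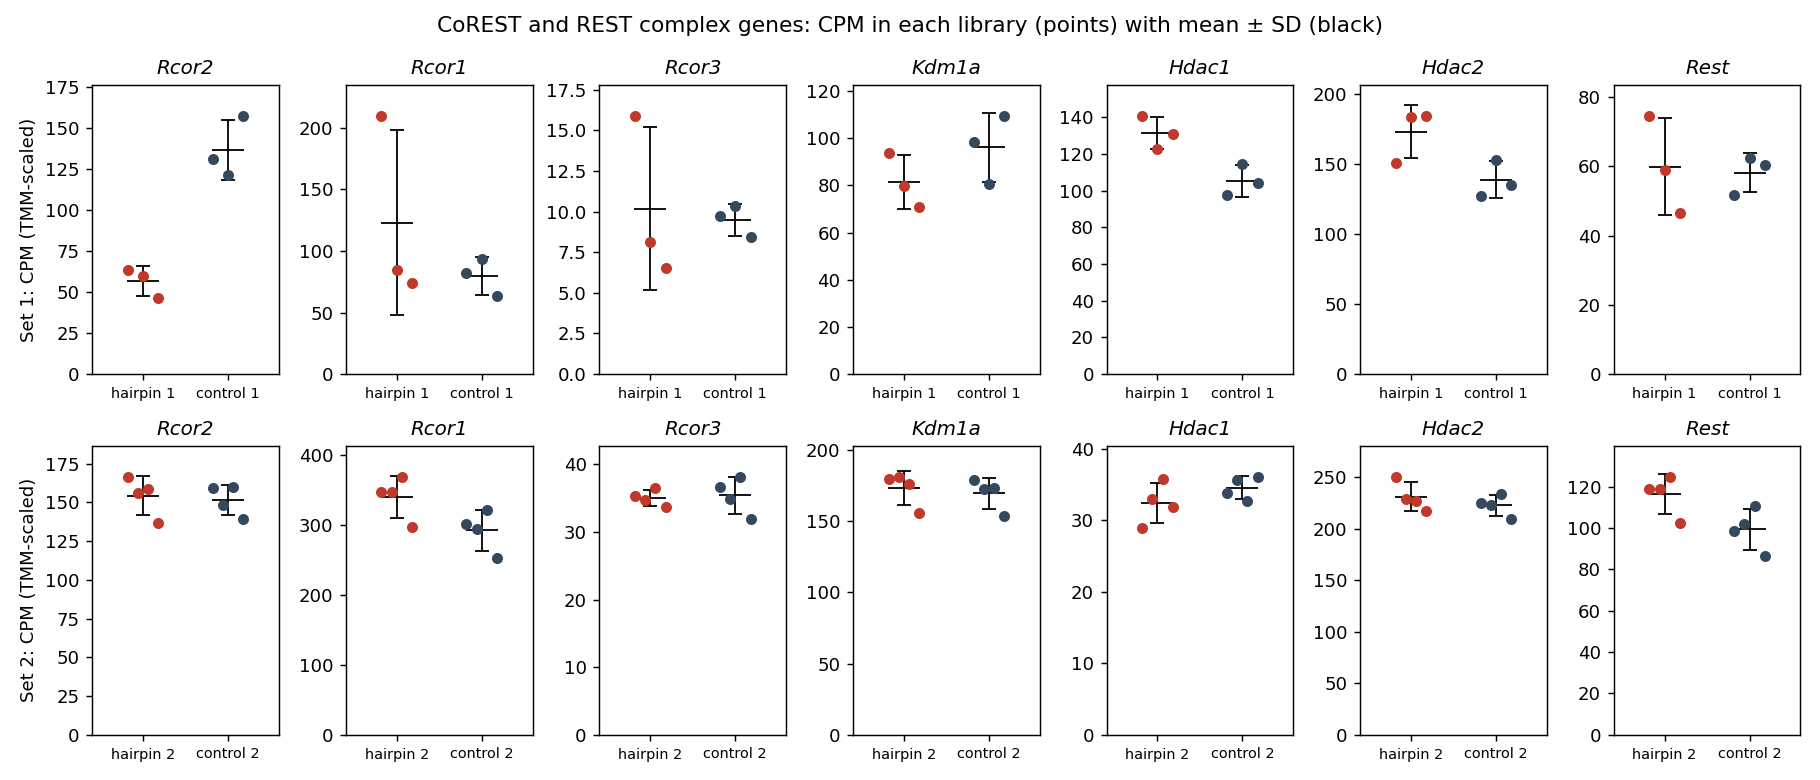
CPM of the 7 genes in each library, set 1 in the upper row and set 2 in the lower row, hairpin libraries (red) left of control libraries (dark); black bars are means ± SD and every axis starts at 0. Rcor2 lies between 46.7 and 63.8 CPM in hairpin 1 libraries, below all control 1 libraries, and overlaps between groups in set 2, while Rcor1 and Rcor3 each have 1 high hairpin 1 library, replicate 1.

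Rcor2 lies on chromosome 19 between 7267325 and 7275225 on the plus strand of GRCm38, and no annotated gene overlaps it. To see whether the low values extended along the chromosome, the 4 protein-coding genes starting within 100 kb of an end of Rcor2 were examined. Otub1, which encodes a deubiquitinase, averaged 213 ± 24.8 CPM in hairpin 1 libraries and 274 ± 24.7 CPM in control 1 libraries (SD, n = 3 each), a log2 fold change of -0.36 with no overlap between groups (adjusted p = 0.801, edgeR). Mark2, which encodes a polarity kinase and whose 3′ end lies next to that of Rcor2, had a log2 fold change of -0.31 with overlapping groups (adjusted p = 0.838, edgeR), and of -0.69 without hairpin 1 replicate 1 (adjusted p = 0.125). Cox8a, a subunit of cytochrome c oxidase, and Naa40, an N-terminal acetyltransferase for histones, had -0.02 and -0.10. Over all genes tested in set 1, 6.37% were lower with no overlap. In set 2 all 4 neighbours lay between -0.05 and 0.04. The median log2 fold change of chromosome 19 was -0.09 in hairpin 1 and -0.02 in hairpin 2, so Rcor2 in hairpin 1 was lower than its chromosome by 1.17 on the log2 scale.

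Rcor1, the scaffold of the founding CoREST complex, was at 210, 84.7 and 74.4 CPM in hairpin 1 libraries, against 82.4, 93.5 and 63.4 CPM in control 1 libraries. Only hairpin 1 replicate 1 was above the control libraries. Fitted over all 6 libraries, Rcor1 had a log2 fold change of 0.63 (SE 0.412, adjusted p = 0.804, edgeR, n = 3 each), and without that library it was -0.006. Rcor1 lies on chromosome 12, where that library was high as a whole. It exceeded the control mean by 1.41 on the log2 scale there, which is 0.74 above the chromosome's median in the same library. The part of the chromosome in the difference was not tested.

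In set 2, Rcor1 was at 347, 347, 369 and 297 CPM in hairpin 2 libraries, against 301, 295, 322 and 253 CPM in control 2 libraries. The groups overlapped, since hairpin 2 replicate 4 was below control 2 replicates 1 and 3, but hairpin 2 was higher in 4 of 4 pairs of equal number. The log2 ratios within pairs lay between 0.20 and 0.24. The log2 fold change of 0.22 (SE 0.0876) had an adjusted p of 0.197 without the block and of 0.00237 with it (edgeR quasi-likelihood test, n = 4 each). The median log2 fold change of chromosome 12 in the same comparison was 0.13, and Rcor1 minus that median was 0.08. It was higher than the median deviation of its chromosome in hairpin 2 replicates 1, 2 and 3 and lower in replicate 4.

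Rcor3, the third scaffold gene, was at 15.9, 8.13 and 6.51 CPM in hairpin 1 libraries, against 9.705, 10.3 and 8.42 CPM in control 1 libraries. Hairpin 1 replicate 1 was the highest library, and the other 2 hairpin 1 libraries were below all controls. For Rcor3 the log2 fold change was 0.10 (SE 0.397, adjusted p = 0.961, edgeR, n = 3 each), and it was -0.38 without hairpin 1 replicate 1. In set 2 Rcor3 was at 35.4, 34.7, 36.5 and 33.7 CPM in hairpin 2 libraries, against 36.6, 34.96, 38.2 and 31.9 CPM in control 2 libraries. The groups overlapped, with a log2 fold change of -0.02 (SE 0.0708, adjusted p = 0.942, edgeR, n = 4 each).

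Levels of different genes were compared only per length, as CPM per kilobase of annotated exon. In hairpin 1 libraries Rcor2 was at 20.2, 19.04 and 14.8 CPM per kilobase and Rcor1 at 36.9, 14.9 and 13.1, against 41.5, 38.6 and 49.9 for Rcor2 and 14.5, 16.5 and 11.2 for Rcor1 in control 1 libraries. Rcor2 was the larger scaffold transcript in all 3 control 1 libraries and in hairpin 1 replicates 2 and 3, where the margin was small. Rcor2 made up 34.7, 55.1 and 52.1% of the summed level of the 3 scaffold genes in hairpin 1 libraries, against 73.2, 69.1 and 80.9% in control 1 libraries. The means were 47.3 ± 11.1% in hairpin 1 libraries, with replicate 1 the lowest, and 74.4 ± 5.99% in control 1 libraries (SD, n = 3 each). The summed level itself was 40.4 ± 15.8 CPM per kilobase in hairpin 1 libraries and 58.1 ± 3.17 in control 1 libraries, and hairpin 1 replicate 1, with its high Rcor1, reached 58.3.

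In set 2 the same share was 45.3, 43.7, 42.6 and 44.1% in hairpin 2 libraries, against 47.6, 46.4, 46.0 and 48.6% in control 2 libraries. All hairpin 2 libraries were below all control 2 libraries. Here the difference lay in Rcor1, which was at 59.9 ± 5.35 CPM per kilobase in hairpin 2 libraries and 51.5 ± 5.12 in control 2 libraries, while Rcor2 was at 48.9 ± 4.04 and 48.1 ± 3.07 (SD, n = 4 each). Since both shares contain genes picked for the list, neither was tested.

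**Figure D2:**
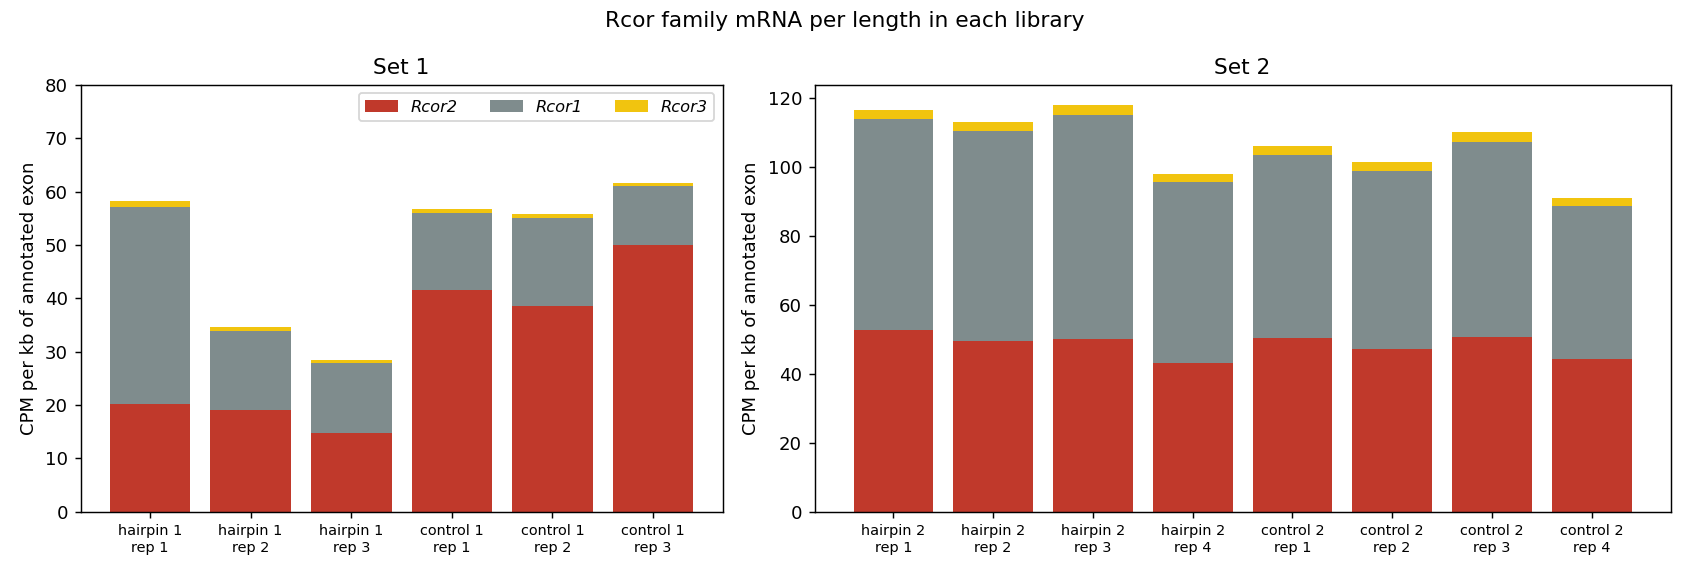
CPM per kilobase of annotated exon of the 3 scaffold genes in each library, stacked (Rcor2 red, Rcor1 grey, Rcor3 yellow), with set 1 left and set 2 right and hairpin libraries left of control libraries. Rcor2 takes 47.3% of the stack on average in hairpin 1 libraries, with replicate 1 the lowest at 34.7%, and 74.4% in control 1 libraries. In set 2 the averages are 43.9% in hairpin 2 libraries and 47.1% in control 2 libraries.

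Kdm1a encodes LSD1, the demethylase of the complex. It was at 93.6, 79.6 and 71.0 CPM in hairpin 1 libraries, against 98.2, 80.6 and 109 CPM in control 1 libraries. The groups overlapped, and the log2 fold change was -0.24 (SE 0.201, adjusted p = 0.830, edgeR, n = 3 each). In set 2 it was at 180, 181, 176 and 156 CPM in hairpin 2 libraries, against 179, 172, 173 and 154 CPM in control 2 libraries. The groups overlapped again, hairpin 2 was higher in 4 of 4 pairs by at most 0.07 on the log2 scale, and the log2 fold change was 0.03 (SE 0.0683, adjusted p = 0.858, edgeR, n = 4 each). The gene body of Kdm1a overlaps that of Luzp1 on the other strand, which averaged 104 CPM in set 1. The strand setting of the authors' counting is not given in the sources used here, so reads from a shared stretch could be split between them.

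The deacetylase genes Hdac1 and Hdac2 were both higher on average in hairpin 1 than in control 1. Hdac1 was at 141, 123 and 131 CPM in hairpin 1 libraries, against 97.5, 115 and 104 CPM in control 1 libraries. Hdac2 was at 151, 184 and 184 CPM in hairpin 1 libraries, against 127, 153 and 135 CPM in control 1 libraries. The Hdac1 groups did not overlap, and the Hdac2 groups overlapped by 1 library on each side. Both genes had a log2 fold change of 0.32, with SEs of 0.166 and 0.179 and an adjusted p of 0.801 for each (edgeR, n = 3 each). Leaving out hairpin 1 replicate 1 left the log2 fold changes at 0.27 for Hdac1 and 0.41 for Hdac2.

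In set 2, Hdac1 was at 28.96, 33.0, 35.8 and 31.9 CPM in hairpin 2 libraries, against 33.7, 35.6, 32.7 and 36.1 CPM in control 2 libraries. Hdac2 was at 251, 229.5, 227.5 and 217 CPM in hairpin 2 libraries, against 226, 223, 234 and 210 CPM in control 2 libraries. The groups overlapped for both. The log2 fold change was -0.10 for Hdac1 (SE 0.0766, adjusted p = 0.556) and 0.05 for Hdac2 (SE 0.0603, adjusted p = 0.703, edgeR, n = 4 each). Hdac1 has a processed pseudogene, Gm10093 on chromosome 17, that matches its longest transcript at 99.4% identity over 1444 of 2038 bases. Gm10093 was counted at 4.53 to 7.04 CPM in set 1 and 0.670 to 1.16 CPM in set 2, and how reads matching both were assigned was not stated, so the level of Hdac1 is uncertain.

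Rest encodes the DNA-binding repressor that brings the complex to RE1 elements. It was at 74.5, 58.8 and 46.4 CPM in hairpin 1 libraries, against 51.7, 62.2 and 60.4 CPM in control 1 libraries. Hairpin 1 libraries held both the highest and the lowest value, and the log2 fold change was 0.05 (SE 0.228, adjusted p = 0.970, edgeR, n = 3 each). Without hairpin 1 replicate 1 it was -0.15.

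In set 2, Rest was at 119, 119, 125 and 102 CPM in hairpin 2 libraries, against 98.5, 102, 110 and 86.5 CPM in control 2 libraries. The groups overlapped only because hairpin 2 replicate 4 lay below control 2 replicate 3, and hairpin 2 was higher in 4 of 4 pairs, by 0.18 to 0.27 on the log2 scale. The log2 fold change was 0.23 (SE 0.0854), with an adjusted p of 0.170 without the block and of 0.00276 with it (edgeR quasi-likelihood test, n = 4 each). Rest lies on chromosome 5, whose median log2 fold change was 0.12 in hairpin 2, and Rest minus that median was 0.11. Replicate 4 was the lowest library in both groups of set 2 for Rest and Rcor1. The same held for Rcor2, Rcor3, Kdm1a and Hdac2, but not for Hdac1.

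**Figure D3:**
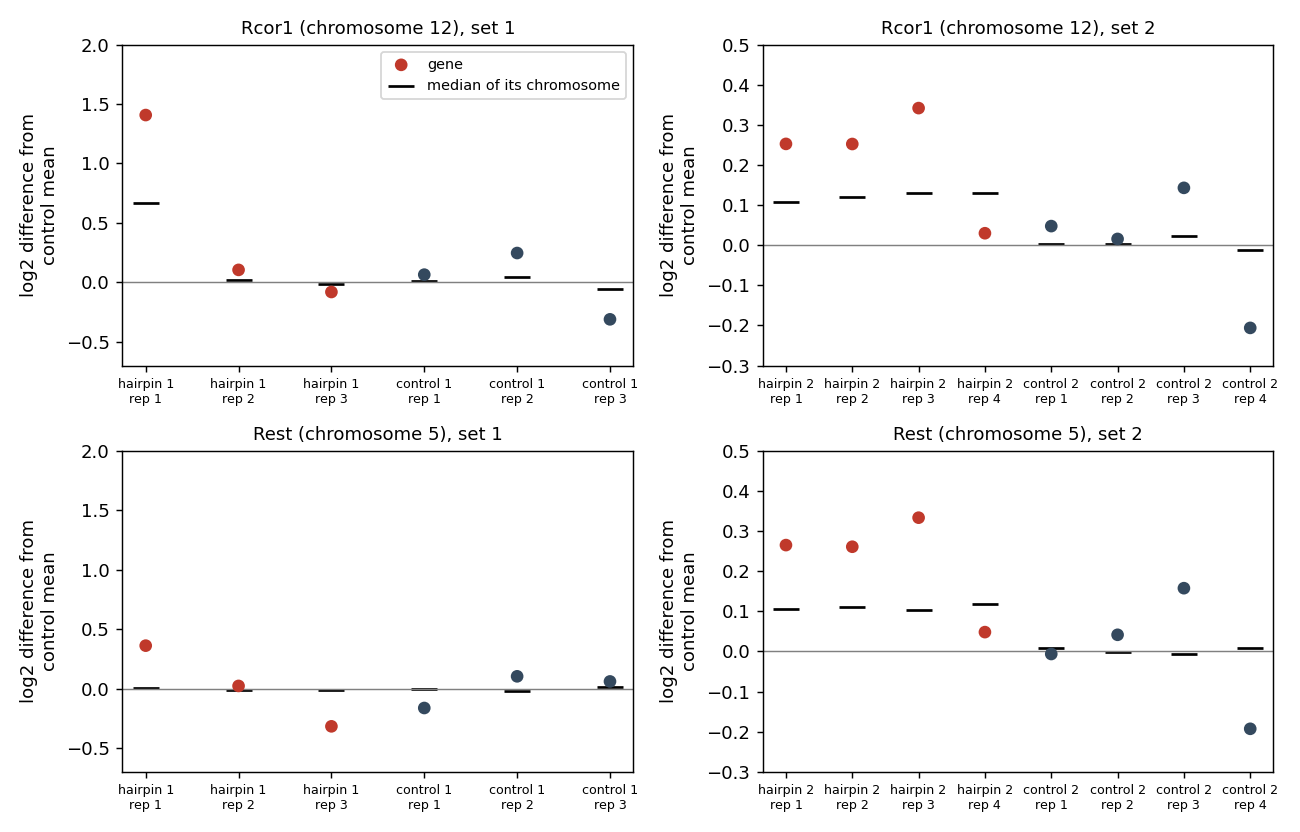
Log2 difference of Rcor1 (upper row) and Rest (lower row) from the mean of the control libraries, in each library of set 1 (left) and set 2 (right); points are the gene (red hairpin, dark control) and black dashes the median of its chromosome, over genes averaging at least 5 CPM. In hairpin 1 replicate 1, Rcor1 is at 1.41 and chromosome 12 at 0.67; in hairpin 2 both chromosomes lie near 0.1 in all 4 libraries, and both genes lie above them in replicates 1 to 3 only.

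In hairpin 1, 0 of the 6 genes other than Rcor2 passed an adjusted p of 0.05 with edgeR, beside 0 of all 13540 genes tested (0%). None of these 6 had an unadjusted p under 0.05 (beside 5.41% of all genes tested), or was called by DESeq2 or by limma voom (beside 18 and 8 genes in all). Of these 6, only Hdac1 had groups that did not overlap, and it was higher. Over all genes tested the share was 12.9%, with 6.48% higher and 6.37% lower. Rcor2 is left out of that count because its fall in these libraries put it on the list. In hairpin 2, 0 of the 7 genes passed with edgeR, beside 854 of 14126 genes (6.05%), 2.04% of them higher and 4.01% lower as shares of all genes tested. Of the 7 genes, 2 (Rcor1 and Rest) had an unadjusted p under 0.05, beside 19.8% of all genes tested. Both were called higher with the replicate block, where 20.4% of all genes were called, 10.2% higher and 10.1% lower. Voom also called both, among 2466 genes in all, and DESeq2 called neither, among 1321 genes in all. Both were also called after leaving out both replicate 4 libraries, a choice made after seeing the data, where 16.9% of all genes were called, 7.93% higher and 9.02% lower. For no member did the groups of set 2 avoid overlap, beside 15.3% of all genes (6.9% higher and 8.43% lower).

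The difference between the knockdowns was tested for the 6 other genes in a model of all 14 libraries. None of them passed, beside 62 of 15043 genes (0.412%). Hdac1 had the smallest p, with a hairpin 1 log2 fold change minus the hairpin 2 log2 fold change of 0.43 (SE 0.142, adjusted p = 0.243, edgeR), and was the 1 gene of 6 with an unadjusted p under 0.05. The remaining 5 lay between -0.26 for Kdm1a and 0.42 for Rcor1, with adjusted p-values between 0.497 and 0.917 (edgeR). DESeq2 also called 0 of the 6. Both models take 1 spread per gene over both sets, although each of the 6 genes varied more in set 1. In edgeR each SE of a difference was below that of hairpin 1 alone (for Hdac1, 0.142 against 0.166). These SEs and p-values may therefore be too small.

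**Figure D4:**
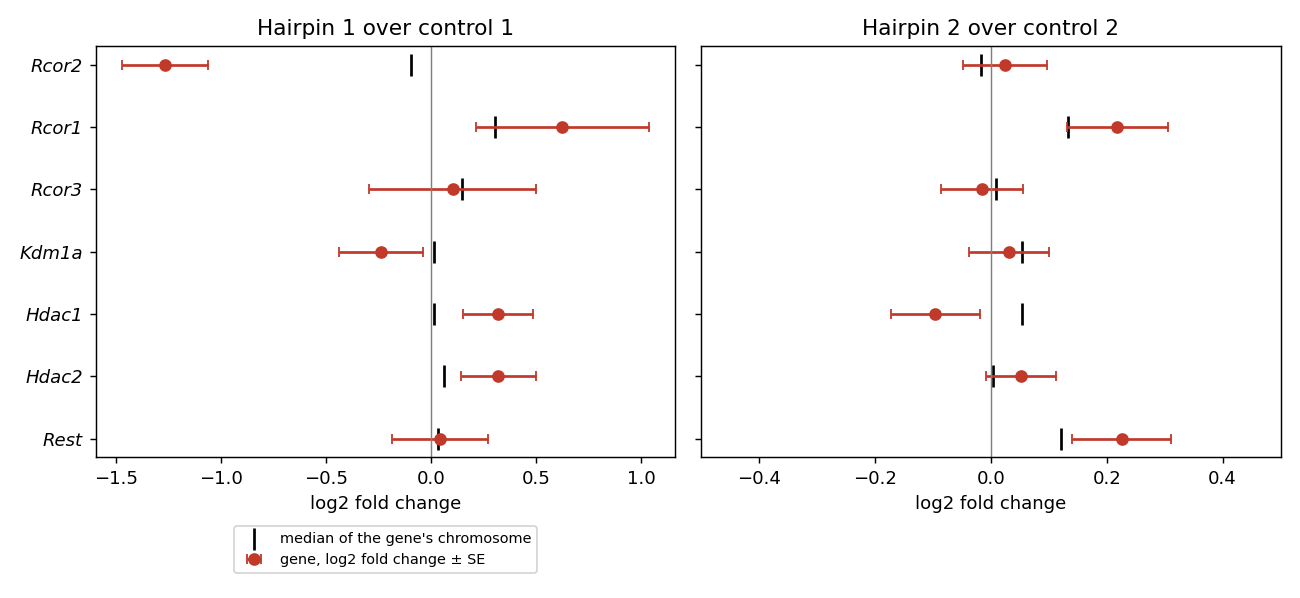
Log2 fold change ± SE of the 7 genes (red points) in hairpin 1 over control 1 (left) and hairpin 2 over control 2 (right), with the median of each gene's chromosome as a black tick; the panels have different horizontal scales. Rcor2 is at -1.27 in hairpin 1 and 0.02 in hairpin 2; Rcor1 and Rest are at 0.22 and 0.23 in hairpin 2, where the medians of their chromosomes are 0.13 and 0.12.

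Per length, the order of the 7 genes in hairpin 1 libraries was Hdac2 (38.6 ± 4.27 CPM per kilobase), Hdac1 (38.2 ± 2.59), Rcor1 (21.6 ± 13.3), Rcor2 (18.01 ± 2.85), Kdm1a (15.7 ± 2.199), Rest (8.30 ± 1.95) and Rcor3 (0.747 ± 0.368). In control 1 libraries it was Rcor2 (43.3 ± 5.89), Hdac2 (30.9 ± 2.94), Hdac1 (30.6 ± 2.51), Kdm1a (18.5 ± 2.81), Rcor1 (14.04 ± 2.68), Rest (8.05 ± 0.783) and Rcor3 (0.696 ± 0.0710; SD, n = 3 each). Rcor2 was thus the leading gene of control 1 libraries, apart from the next gene, and the fourth of hairpin 1 libraries, where its range overlapped those of its neighbours. Of the other neighbours in control 1, Hdac2 and Hdac1, and Kdm1a and Rcor1, had overlapping ranges. In set 2 the order was the same in hairpin 2 and control 2 libraries, namely Rcor1, Hdac2, Rcor2, Kdm1a, Rest, Hdac1 and Rcor3. The first 3 of these overlapped in neighbouring ranges, and all later neighbours were separate. With the length of the longest transcript in place of all annotated exons, Rcor2 ranked number 2 in control 1 libraries and number 5 in hairpin 1 libraries. By that length the order in hairpin 2 libraries was Hdac2, Rcor1, Kdm1a, Rcor2, Rest, Hdac1 and Rcor3, and in control 2 libraries Hdac2, Kdm1a, Rcor2, Rcor1, Hdac1, Rest and Rcor3, so the order in set 2 depends on the length used. Rcor3 is the gene that this choice changes most in level, since its annotated exons cover 13622 bases and its longest transcript 3791.

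Over the 14 libraries, after the mean of each set was removed, the genes whose log2 level was most like that of Rcor2 among 11339 protein-coding genes were Plcg1 (Pearson r = 0.938), Ints3 (0.931), Mllt1 (0.926), Ddx49 (0.923) and Abcf1 (0.922). These values describe the libraries and carry no test, because Rcor2 separates hairpin 1 from control 1 libraries and any gene that does so will score high. Plcg1, a phospholipase of growth factor signalling, averaged 33.5 ± 5.42 CPM in hairpin 1 libraries and 54.8 ± 2.60 CPM in control 1 libraries (SD, n = 3 each). In set 2 it averaged 91.2 ± 5.56 CPM in hairpin 2 libraries and 90.9 ± 3.51 CPM in control 2 libraries (SD, n = 4 each). The log2 fold changes of the 5 genes lay between -0.71 and -0.41 in hairpin 1 and between -0.06 and 0.01 in hairpin 2. By the same measure Kdm1a was at 0.73 with Rcor2, Hdac1 at -0.75, Hdac2 at -0.73, Rcor1 at -0.28, Rcor3 at 0.15 and Rest at 0.18.

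The remaining partners of the LSD1 and CoREST complex were taken as a list of 12, among them the HMG-box subunit Hmg20b, the histone reader Phf21a, Gse1, the zinc finger proteins Zmym2 and Zmym3, the second LSD family demethylase Kdm1b, the Mier scaffolds and the deacetylases Hdac3 and Hdac8. All 12 were tested in both sets. In hairpin 1, 0 of 12 passed, beside 0% of all genes tested, with a median log2 fold change of 0.19 beside 0.03 over all genes. Hmg20b had the smallest p, at 59.3 ± 6.11 CPM in hairpin 1 libraries and 86.7 ± 15.6 CPM in control 1 libraries, a log2 fold change of -0.55 with no overlap between groups (adjusted p = 0.801, edgeR, n = 3 each). Hmg20b was singled out after its values were seen. Of the 12, 1 was lower with no overlap (Hmg20b) and 1 higher (Mier3), beside 6.37% and 6.48% of all genes tested.

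In hairpin 2, 1 of the 12 rose and 1 fell, beside 2.04% higher and 4.01% lower of all genes tested. The median log2 fold change of the 12 was -0.02, beside 0.005 over all genes. With no overlap, 1 of the 12 was higher (Kdm1b) and 1 lower (Zmym3), beside 6.9% and 8.43% of all genes tested. Kdm1b was at 36.8, 35.8, 36.1 and 35.6 CPM in hairpin 2 libraries, against 30.2, 29.2, 29.7 and 30.2 CPM in control 2 libraries, and all hairpin 2 libraries were higher. Its log2 fold change was 0.27 (SE 0.0550, adjusted p = 0.0165, edgeR), beside a median of 0.19 for its chromosome, 13. Zmym3 was at 57.3, 63.1, 54.7 and 57.2 CPM in hairpin 2 libraries, against 68.6, 68.2, 67.9 and 69.4 CPM in control 2 libraries, and all hairpin 2 libraries were lower. Its log2 fold change was -0.24 (SE 0.0584, adjusted p = 0.0426, edgeR), beside -0.02 for the X chromosome. Neither call was stable to the loss of 1 library: Kdm1b passed in 4 of 8 such fits (adjusted p 0.0130 to 0.0687) and Zmym3 in 2 of 8 (0.0376 to 0.119), and 0 of the 12 passed without control 2 replicate 1, control 2 replicate 2 or hairpin 2 replicate 1, or in the model of all 14 libraries. Without the filter on low counts Zmym3 was at an adjusted p of 0.0582 (edgeR). With the replicate block, where 20.4% of all genes were called (10.2% higher and 10.1% lower), 4 of the 12 rose (Kdm1b, Gse1, Mier1 and Mier3) and 2 fell (Zmym3 and Mier2). Without both replicate 4 libraries, where 16.9% of all genes were called, the counts were 4 and 1.

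REST cofactors and the factors that process or degrade REST formed a list of 17, of which 16 were tested in each set. In hairpin 1, 0 passed, beside 0% of all genes tested, with a median log2 fold change of 0.02. In hairpin 2, 1 rose and 0 fell, beside 2.04% higher and 4.01% lower of all genes tested, with a list median of -0.001. Ctbp1, a corepressor that joins the REST and CoREST complexes, was at 325, 317, 304 and 334 CPM in hairpin 2 libraries, against 286, 281, 268 and 262 CPM in control 2 libraries. It was higher with no overlap, beside 6.9% of all genes tested. Its log2 fold change was 0.22 (SE 0.0541, adjusted p = 0.0393, edgeR, n = 4 each), beside 0.12 for its chromosome, 5. In set 1 it averaged 387 ± 95.2 CPM in hairpin 1 libraries and 443 ± 49.6 CPM in control 1 libraries, with overlapping groups (SD, n = 3 each). The call was lost in 7 of 8 fits with 1 library left out, all but that without hairpin 2 replicate 4 (adjusted p 0.0368 to 0.103, edgeR), and in the model of all 14 libraries. With the replicate block, beside 20.4% of all genes, 2 rose (Ctbp1 and Cdyl) and 1 fell (Ctbp2) in hairpin 2.

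The SIN3 and NuRD complexes share HDAC1 and HDAC2 with CoREST. Of 22 other subunit genes, 21 were tested in each set. In hairpin 1, 0 passed, beside 0% of all genes tested, with a median log2 fold change of 0.03. None had an unadjusted p under 0.05 (beside 5.41% of all genes tested) or was called by DESeq2 or voom (beside 18 and 8 genes in all). In hairpin 2, 0 passed with edgeR (beside 6.05% of all genes), while 3 of 21 had an unadjusted p under 0.05 (beside 19.8%). DESeq2 called 1, among 1321 genes in all, and voom called 3, among 2466 genes in all. The replicate block called 4 higher (Sap30, Sap30l, Brms1l and Mbd3) and 1 lower (Chd3), beside 20.4% of all genes with the block. The median log2 fold change in hairpin 2 was 0.03. Of the genes with a high mean CPM over all libraries, Chd4, the NuRD remodeller, was at 584 ± 26.3 CPM in hairpin 2 libraries and 577 ± 18.4 CPM in control 2 libraries, and Rbbp4, a histone chaperone, was at 311 ± 34.7 and 309 ± 21.5 CPM (SD, n = 4 each). In set 1 Chd4 was at 385, 308 and 279 CPM in hairpin 1 libraries, against 389, 386 and 398 CPM in control 1 libraries, with a log2 fold change of -0.27 (adjusted p = 0.814, edgeR). Its groups did not overlap, but by a narrow gap (385 against 386 CPM). Of the 21 genes, 2 were lower and 2 higher with no overlap in set 1, beside 6.37% and 6.48% of all genes tested.

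Other DNA-binding factors that recruit LSD1 and CoREST, among them SNAG-domain proteins such as Gfi1, were mostly low. Of 11 such genes, 6 in set 1, and 5 of the 8 listed in set 2, were below 1 CPM in every library, and 5 and 3 were tested. In either set 0 passed with edgeR (beside 0% of all genes tested in hairpin 1 and 6.05% in hairpin 2). In either set 0 had an unadjusted p under 0.05 (beside 5.41% and 19.8%), and DESeq2 and voom each called 0. Over all genes, DESeq2 called 18 in hairpin 1 and 1321 in hairpin 2, and voom 8 and 2466. Zfp217, a zinc finger partner of CoREST, averaged 151 ± 9.29 CPM in hairpin 2 libraries and 152 ± 5.66 CPM in control 2 libraries, and Gfi1 averaged 3.05 ± 0.505 and 2.80 ± 0.444 CPM (SD, n = 4 each). In set 1 Zfp217 was at 104, 38.4 and 31.4 CPM in hairpin 1 libraries, against 45.0, 40.8 and 16.3 CPM in control 1 libraries, with hairpin 1 replicate 1 again the high library.

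Genes that REST is known to hold silent, most of them neuronal, formed the last list, of 40. Few were expressed: in set 1, 25 of 40 were below 1 CPM in every library, 5 of them with no count at all, and 13 were tested. In set 2, 24 were listed, 14 of these were below 1 CPM in every library and 11 were tested. In hairpin 1, 0 of 13 passed with edgeR, beside 0% of all genes tested, and the median log2 fold change was -0.20. DESeq2 and voom each called 0, beside 18 and 8 genes in all. With edgeR, 2 of the 13 had an unadjusted p under 0.05, beside 5.41% of all genes tested. These were Chrnb2 and Syt7, both lower, named after their values were seen. In hairpin 2, 0 of 11 rose and 2 fell, beside 2.04% higher and 4.01% lower of all genes tested, with a list median of 0.08. The summed level of the list ran between 124 and 175 CPM in hairpin 2 libraries and between 137 and 160 CPM in control 2 libraries, and in set 1 between 152 and 274 CPM in hairpin 1 libraries and between 180 and 277 CPM in control 1 libraries. These sums rest on a few genes. Kcnn4 averaged 112 CPM in hairpin 1 and 107 CPM in control 1 libraries. Syt7 averaged 56.4 CPM in hairpin 2 and 47.0 CPM in control 2 libraries.

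L1cam, a neural cell adhesion molecule gene and a classical REST target, was at 7.98, 8.56, 9.62 and 5.14 CPM in hairpin 2 libraries, against 17.4, 16.2, 17.1 and 16.3 CPM in control 2 libraries. All hairpin 2 libraries were lower (beside 8.43% of all genes tested), with a log2 fold change of -1.10 (SE 0.153, adjusted p = 0.00248, edgeR, n = 4 each). Unc13a, which encodes a synaptic vesicle priming protein, was at 29.99, 28.9, 31.2 and 27.9 CPM in hairpin 2 libraries, against 39.2, 35.4, 35.7 and 36.6 CPM in control 2 libraries. Again all hairpin 2 libraries were lower, with a log2 fold change of -0.32 (SE 0.0653, adjusted p = 0.0186, edgeR, n = 4 each). In set 1 both overlapped between groups: L1cam averaged 19.2 ± 6.32 CPM in hairpin 1 libraries and 22.0 ± 6.41 CPM in control 1 libraries, and Unc13a 18.95 ± 22.8 and 16.8 ± 8.21 CPM (SD, n = 3 each). With 1 library of set 2 left out, L1cam passed in 8 of 8 fits (adjusted p 0.000138 to 0.0123) and Unc13a in 4 of 8 (0.0200 to 0.0711, lost without control 2 replicates 1 or 2 or hairpin 2 replicates 1 or 2). In the model of all 14 libraries neither passed, L1cam being at an adjusted p of 0.0827 (edgeR). The high SD of Unc13a in set 1 came from hairpin 1 replicate 1, at 45.2 CPM.

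The RE1 element consists of a left block, TCAGCACC, and a right block, GGACAG, and both strands of the RefSeq promoter windows (250 bases upstream and 50 downstream of each start, GRCm38.p6) were searched for the left block. It was present for 5 of the 26 listed genes with a window, which had 41 windows between them, and in 1.65% of all 32851 windows. A count of genes and a share of windows are unlike measures, and the list was chosen as REST targets, so no enrichment is read from them. The right block followed within 26 bases for Scg2 and Unc13a, and in 0.0700% of all windows. L1cam had no window in the table. The 30-base stretches of the genes with both blocks are shown with the blocks in capitals. The search fixed no spacing between the blocks within that limit, so a stretch with both is not shown to be an RE1 element. Scg2 is read on the plus strand at chr1:79440022-79440051 and Unc13a on the plus strand at chr8:71671724-71671753, in both cases the strand opposite to the gene.
Scg2: cgttTCAGCACCGGACAGctcctcggctta
Unc13a: cgctTCAGCACCgggggcgcGGACAGcgcc
In Scg2 the blocks are adjacent, and in Unc13a a stretch of other bases lies between them. A match does not show that REST was bound in these organoids.

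**Figure D5:**
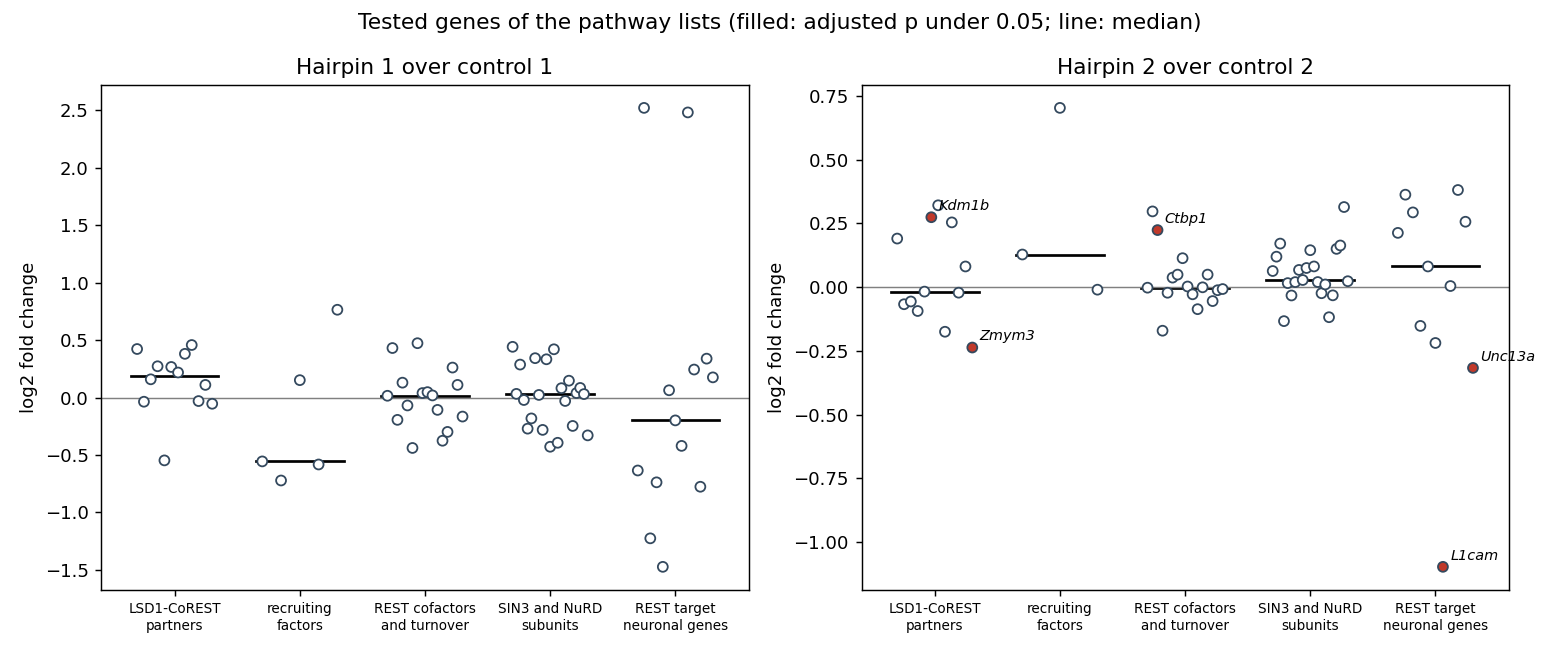
Log2 fold change of each tested gene of the 5 lists in hairpin 1 over control 1 (left) and hairpin 2 over control 2 (right), on different vertical scales; filled points passed an adjusted p of 0.05 with edgeR, open points did not, and black lines are list medians. No point is filled in hairpin 1; in hairpin 2 the filled points are Kdm1b, Zmym3, Ctbp1, L1cam and Unc13a.

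Neuronal genes are also expressed by hormone-producing cells of the gut and by nerve cells, so markers of other cell types were measured beside them. Epithelial markers (10 genes, among them Epcam and Krt8) summed to 6828 to 8322 CPM in hairpin 1 libraries and 6203 to 8435 CPM in control 1 libraries. Of the 10, 0 passed in hairpin 1, beside 0% of all genes tested. In set 2 they summed to 5101 to 5789 CPM in hairpin 2 libraries and 6386 to 6547 CPM in control 2 libraries, and 4 of 10 fell (Krt8, Krt18, Cdh1 and Cdx1). Of all genes tested in set 2, 2.04% rose and 4.01% fell. The part of the epithelial markers in the lower L1cam and Unc13a of hairpin 2 was not tested. Enteroendocrine markers (18 genes) summed to 3.06 to 42.1 CPM in hairpin 1 libraries and 12.3 to 24.4 CPM in control 1 libraries, with Gcg and Sst at 0 in set 1. In set 2, 10 were listed, their sum was 7.72 to 10.6 CPM in hairpin 2 libraries and 10.3 to 18.4 CPM in control 2 libraries, and 1 of the 2 tested, Isl1, fell. Markers of enteric neurons and glia (8 genes) summed to 1.22 to 11.8 CPM in hairpin 1 libraries and 4.77 to 8.07 CPM in control 1 libraries, with Sox10 at 0. In set 2, 4 were listed, summing to 2.94 to 4.23 CPM in hairpin 2 libraries and 3.93 to 4.36 CPM in control 2 libraries. Stromal markers (9 genes, Dcn and Lum at 0 in set 1) summed to 3.32 to 4.09 CPM in hairpin 1 libraries and 2.48 to 10.7 CPM in control 1 libraries, and to 13.9 to 15.8 CPM in hairpin 2 libraries and 11.3 to 12.7 CPM in control 2 libraries, where Pdgfra rose and Pdgfrb fell. Immune markers (6 genes) summed to 6.35 to 54.6 CPM in hairpin 1 libraries and 9.49 to 39.3 CPM in control 1 libraries, and to 11.8 to 15.7 CPM in hairpin 2 libraries and 14.2 to 20.5 CPM in control 2 libraries. Most of these sums was Cd68, which ran from 5.51 to 53.8 CPM in hairpin 1 libraries and from 9.25 to 39.1 CPM in control 1 libraries. Endothelial markers (4 genes) reached 49.7 CPM in 1 hairpin 1 library, 49.4 CPM of it from Cdh5 and the other markers at or below 0.318 CPM, against at most 2.73 CPM in control 1 libraries, and stayed at or below 0.581 CPM in hairpin 2 libraries and 0.318 CPM in control 2 libraries.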

How the data were processed

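RNA was poly(A)-selected and made into libraries with a stranded TruSeq kit, per the labels' protocols. Each library has 1 deposited file of unnormalized counts by gene. The submitters' processing notes name bcl2fastq 2.20, FastQC, STAR, featureCounts, DESeq2 and build GRCm38, without the strand setting. In set 1, 55421 genes are listed, 26935 of them with no count, and in set 2 only 17490, so each set was analysed alone. IDs were matched to GENCODE M21 symbols (55240 and 17471 matched).

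Here counts were tested with edgeR 4.0.16 (quasi-likelihood, TMM, filterByExpr, Benjamini-Hochberg over all genes tested, threshold 0.05), and the main edgeR fits were tried on simulated data. Alternatives used DESeq2 1.42.0 and voom from limma 3.58.1. Near copies were sought with blastn 2.17.0+. For log2 levels, 0.5 was added to CPM. Deviations of same-numbered libraries from group means correlated at 0.508, 0.369, 0.562 and 0.772 in set 2, all over the limit of 0.1, so the replicate numbers of the titles were taken to pair them. Libraries 1 to 3 of different number also correlated, at 0.261 to 0.393, and hairpin 2 replicate 2 more with control 2 replicate 1 (0.393) than with control 2 replicate 2, so results with the block rest on a weak pairing.

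The members and lists were chosen with earlier results of these data known. Besides the 7 members and Kmt5c, the genes named are, from each list, up to 4 per direction that passed in set 2, or the 2 with the highest mean CPM where none passed, the 5 most like Rcor2, and its neighbours within 100 kb. Any other gene named (those called only with the block, Hmg20b, Chrnb2, Syt7, Kcnn4, the markers and, for its motif, Scg2) was named after its values or sequence were seen.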

Additional observations from a re-analysis of the deposited data

Results flagged for a closer look

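Rcor2 differed between the knockdowns: the log2 fold change of hairpin 1 over control 1 minus that of hairpin 2 over control 2 was -1.28. It is given with no test, because the gene was chosen for its fall in hairpin 1.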

How the results depend on the processing

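Genes called in hairpin 1 numbered 0 with edgeR, 18 with DESeq2, 8 with voom and 187 in the model of all 14 libraries, and 0 to 1 with a library left out (1 without hairpin 1 replicate 1). The model of all 14 libraries takes 1 spread per gene over both sets. In hairpin 2 the 854 became 1321 with DESeq2, 2466 with voom, 2880 with the replicate block, 120 in the model of all libraries, 2396 without both replicate 4 libraries, an alternative added after seeing the data, and 453 to 1409 with 1 library left out (lowest without control 2 replicate 2, highest without hairpin 2 replicate 4). Members called in hairpin 2 numbered 2 with voom, with the replicate block and without both replicate 4 libraries, and 0 to 2 with 1 library left out (2 without hairpin 2 replicate 4). For the difference between the hairpins, DESeq2 called 398 genes, and leaving out 1 library gave 27 to 959, the lowest without hairpin 2 replicate 1 and the highest without hairpin 1 replicate 1. With 1 library left out, log2 fold changes in hairpin 1 ranged between -0.0060 and 0.93 for Rcor1, -0.38 and 0.38 for Rcor3, and -0.15 and 0.24 for Rest, each lowest without hairpin 1 replicate 1. In hairpin 2 they ranged between -0.014 and 0.080 for Rcor2, -0.063 and 0.024 for Rcor3, and -0.012 and 0.080 for Kdm1a, and the difference between -0.18 and 0.66 for Rcor1 and -0.32 and 0.35 for Rcor3. Voom turned Rcor3 and Rest in hairpin 1 to -0.28 and -0.043, the replicate block turned Rcor3 to -0.00084, and subtracting the chromosome median turned Rcor3 in hairpin 1 to -0.043 and Kdm1a in hairpin 2 to -0.023. The cause of these shifts was not tested. The block changed no call in set 1, where same-numbered libraries correlated at 0.301, 0.003 and 0.347 and so share only a number. With 3 libraries a group, SEs of 0.166 to 0.412 on the members' log2 fold changes in set 1 limit what could be called.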
